A study of Mus musculus with 16 samples.

Results

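Glycolysis breaks glucose down to pyruvate, and lactate handling covers the enzymes and carriers that turn pyruvate into lactate and move lactate across the cell membrane. The 33 genes described here carry out or control these steps. They are a list of names, with no measured value in its rule, drawn up when earlier results of these data were known. They are 33 of the 52997 gene symbols counted, in 8 roles: 3 glucose carriers, 3 hexokinases, 7 enzymes of upper glycolysis, 2 enzymes that set the level of fructose-2,6-bisphosphate, 8 enzymes of lower glycolysis, 4 genes of lactate handling, 3 pyruvate dehydrogenase kinases and 3 genes of oxygen sensing.

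The study sequenced polyadenylated RNA of regulatory T cells (Tregs, CD4+ T cells that depend on the transcription factor Foxp3) and of whole skeletal muscle from mice on the B6 background, 6 to 8 weeks old. Tg mice carried the mTreg24 T cell receptor (TCR) transgene, and WT mice were negative for it. All Treg donors also carried a Foxp3 GFP reporter, and the whole muscle labels name no reporter. From Tg mice the cells sorted were Vβ8+ Tregs, whereas from WT mice all Tregs were sorted, so genotype and sort gate cannot be told apart.

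The groups were WT muscle Tregs, Tg muscle Tregs, WT spleen Tregs and Tg spleen Tregs 3 days after muscle injury with Ctx (cardiotoxin, a venom toxin that destroys muscle fibres), and Tg spleen Tregs of uninjured mice, each with 2 libraries. WT spleen Tregs are labelled without an injury state, and the series' design text places them after injury. WT and Tg whole muscle was taken 8 days after injury, with 3 libraries each. Nothing in the labels ties the replicates to separate mice, so the p-values reflect only how these libraries scatter, and that scatter may be technical. Levels are CPM, a gene's count divided by the library total and scaled by 10 to the power 6. In RNA of bulk samples, fewer cells of a type and less RNA per cell cannot be told apart.

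Cells take up glucose through membrane carriers, trap it with hexokinase, split it into triose phosphates and harvest ATP in the lower steps that end with pyruvate kinase. Pyruvate then either enters mitochondria, a step that pyruvate dehydrogenase kinases restrain, or is reduced to lactate by lactate dehydrogenase and exported. T cells that are activated raise this pathway, Tregs are known to rely on it less than conventional effector T cells, and the hypoxia-inducible factor HIF-1 turns on many of its genes. Skeletal muscle fibres run the same steps with their own isozymes, such as Eno3, Pgam2 and Pfkm.

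The Treg libraries held 1986700 to 9116800 counts and the whole muscle libraries 5095999 to 7075420, so 0 counts in a Treg library allow up to 0.329 to 1.51 CPM, for counting error only. Foxp3 was at 1109 to 2125 CPM in Tregs and at most 1.54 CPM in whole muscle, and it was itself higher in muscle Tregs (0.68 in WT, adjusted p 0.00254, and 0.90 in Tg, adjusted p 0.00046). Sample state also moved with tissue: 19 genes that dissociation and heat induce summed to 9933 to 12741 CPM in muscle and 2175 to 2537 CPM in spleen Tregs, and 15 of 19 were higher in muscle in each genotype by edgeR at an adjusted p under 0.05. Of 12 cell cycle genes, 4 were higher in muscle than in spleen Tregs in WT (median log2 fold change 0.96) and 2 in Tg (0.09). The shares of all genes higher in muscle were 9.38% in WT and 4.83% in Tg. The 12 macrophage markers summed to 21.8 to 46.9 CPM in muscle and 86.3 to 207 CPM in spleen Tregs, and the B cell gene Igkc reached 1864 CPM in the second WT spleen library against 15.6 in the first. The part of these in the members' tissue differences was not tested. Without the Igkc-rich library, Gpi1, Pfkl, Pgk1, Ldhb and Pdk1 lost their calls in WT. Without the first WT spleen library, Slc2a3, Pfkl and Ldhb lost theirs. Each of these fits leaves 1 library in the group, so it cannot separate B cell content from the loss of a replicate.

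Most enzymes of the pathway that separated the Tregs of the 2 tissues were higher in injured muscle than in spleen, with the lactate exporter Slc16a3 and the oxygen sensor Egln3 furthest apart. Slc16a3 was 5.01-fold higher in WT and 5.34-fold higher in Tg muscle Tregs. Ldhb, the lactate dehydrogenase subunit of oxidative tissues, was lower in muscle in both genotypes. By edgeR's quasi-likelihood test at an adjusted p under 0.05, 12 of the 30 members tested were higher and 3 were lower in WT muscle than in WT spleen Tregs, and 15 did not pass. Across all 13188 genes tested the shares were 9.38% higher and 6.87% lower. In Tg Tregs, 10 of 30 members were higher and 1 was lower in muscle than in injured-mouse spleen, and 19 did not pass. The shares of all genes there were 4.83% higher and 2.55% lower. The members' median log2 fold change was 0.69 in WT and 0.54 in Tg, beside a median of -0.04 over all genes in both. Slc2a4, Hk3 and Pdk4 had too few counts in Tregs to be tested. With library totals as the only scaling, which shifted the median of all genes by -0.19 in WT and -0.20 in Tg, 9 members were higher and 3 lower in each genotype; Gpi1, Pfkl and Pgk1 no longer passed in WT, nor Pfkl in Tg.

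**Figure D1:**
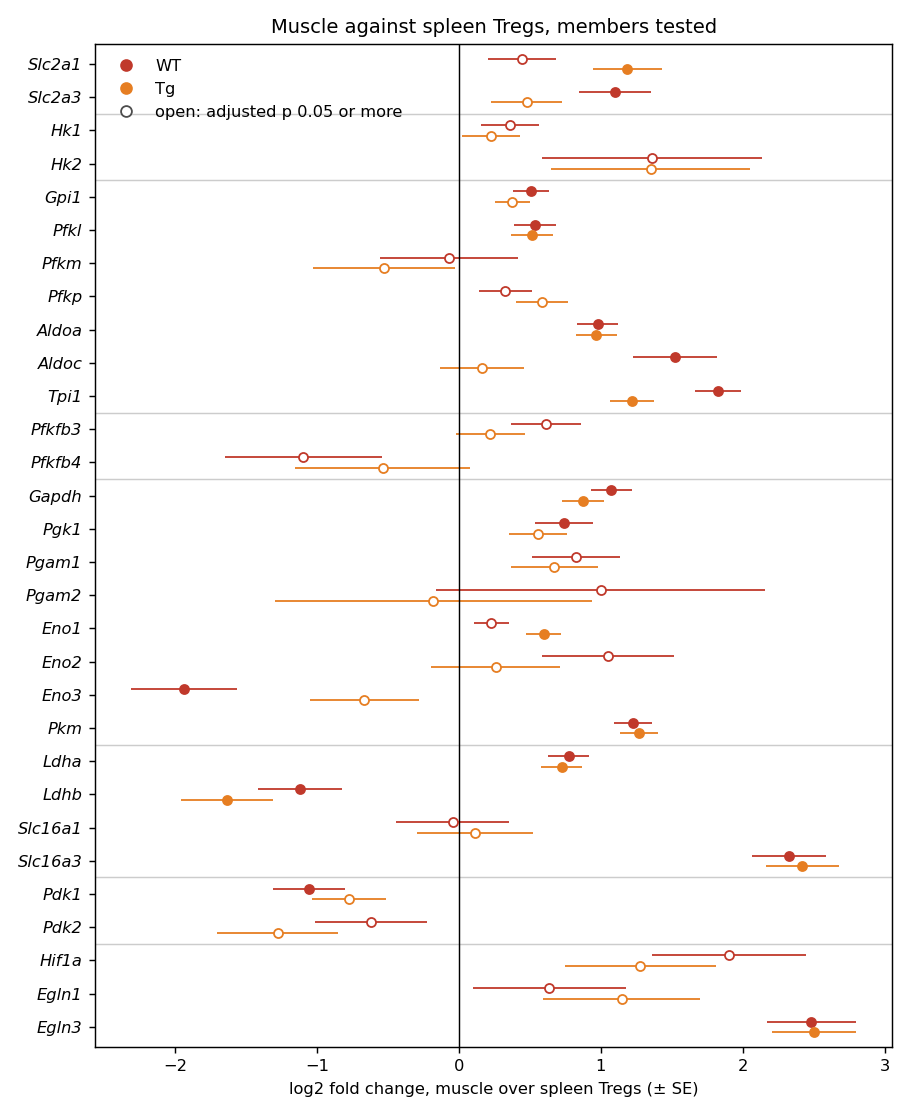
Log2 fold change (x axis, ± SE) of the 30 members tested, muscle over spleen Tregs, in WT (red) and Tg (orange) cells, ordered by role with lines between roles. Filled points had an adjusted p under 0.05; Slc16a3 and Egln3 lie above 2 in both genotypes, and Ldhb, Eno3 and Pdk1 hold the filled points left of 0.

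The same 8 members were higher in both genotypes: Pfkl, Aldoa, Tpi1, Gapdh, Pkm, Ldha, Slc16a3 and Egln3. Slc2a3, Gpi1, Aldoc and Pgk1 passed as higher in WT alone, and Slc2a1 and Eno1 in Tg alone. Passing in one genotype and not in the other is not a difference between genotypes, and the test of that difference called 0 of 30 members, with 4 at an unadjusted p under 0.05. DESeq2 and limma-voom also called 0. The edgeR test called 0.136% of all 13188 genes, and 1046 of them were at an unadjusted p under 0.05. The members farthest apart between genotypes were Aldoc, with a Tg minus WT difference of -1.36 and an adjusted p of 0.341, and Eno3, with 1.27 and 0.571.

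Of the glucose carriers, Slc2a1 (GLUT1, the carrier that activated T cells raise) was at 46.3 and 57.5 CPM in WT and 65.9 and 63.1 CPM in Tg muscle Tregs. In spleen Tregs it was at 50.3 and 37.8 CPM in WT, 34.7 and 30.3 CPM in injured Tg and 33.6 and 28.04 CPM in uninjured Tg mice. The Tg muscle libraries were above all 6 spleen libraries, while one WT muscle library lay within the WT spleen range. The log2 fold change was 1.19 (SE 0.24) in Tg, with an adjusted p of 0.00636, and 0.44 (SE 0.24) in WT, with 0.238. Without the second injured Tg spleen library the Tg adjusted p was 0.0896.

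Slc2a3 (GLUT3, a high-affinity carrier of neurons and lymphocytes) was at 276 and 369 CPM in WT and 268 and 249 CPM in Tg muscle Tregs. Its spleen levels were 125 and 215 CPM in WT, 221 and 205 CPM in injured Tg and 187 and 269.6 CPM in uninjured Tg mice. Both WT muscle libraries exceeded both WT spleen libraries, and the uninjured Tg spleen libraries spanned the Tg muscle values. It was 2.14-fold higher in WT muscle, adjusted p 0.0132. The adjusted p was 0.0813 without the second WT muscle library and 0.051 without the first WT spleen library. Slc2a4 (GLUT4, the insulin-responsive carrier of muscle and fat) was at 0 in all 4 Tg spleen libraries and at most 0.67 CPM in the other Treg libraries.

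No hexokinase passed in either genotype. Hk1, the housekeeping hexokinase, was at 115 to 172 CPM in all 10 Treg libraries. Hk2, the inducible form, was at 7.13 and 7.57 CPM in WT and 15.2 and 15.1 CPM in Tg muscle Tregs, against 6.54 and 0.89 CPM in WT and 8.86 and 4.73 CPM in injured Tg spleen Tregs. Its log2 fold changes of 1.36 (SE 0.78) and 1.35 (SE 0.70) had adjusted p-values of 0.266 and 0.3. Without the first WT spleen library, Hk2 passed in WT with a log2 fold change of 3.21 and an adjusted p of 0.042. Hk3, a hexokinase of myeloid cells, reached at most 2.4 CPM in Tregs.

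Upper glycolysis held 5 of its 7 genes higher in WT muscle Tregs (Gpi1, Pfkl, Aldoa, Aldoc and Tpi1) and 3 of 7 in Tg (Pfkl, Aldoa and Tpi1), and none lower. Tpi1, which interconverts the 2 triose phosphates, stood furthest apart. It was at 319.98 and 286 CPM in WT and 299 and 282 CPM in Tg muscle Tregs. Its spleen levels were 113 and 82.4 CPM in WT, 148 and 139 CPM in injured Tg and 152 and 146 CPM in uninjured Tg mice. No muscle value overlapped a spleen value, and WT spleen was the lowest group. The log2 fold change was 1.83 (SE 0.16) in WT and 1.22 (SE 0.16) in Tg, with adjusted p-values of 3.54e-06 and 0.000155.

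Aldoa, the aldolase of muscle and most other cells, was at 831 and 878 CPM in WT and 947 and 847 CPM in Tg muscle Tregs, and at 548 and 439.5 CPM in WT, 569.6 and 483 CPM in injured Tg and 552 and 509 CPM in uninjured Tg spleen Tregs. Every muscle library exceeded every spleen library, and the log2 fold changes were 0.98 (SE 0.15) in WT and 0.97 (SE 0.15) in Tg, with adjusted p-values of 0.000346 and 0.000577. Aldoc, the brain-type aldolase, was at 50.2 and 43.2 CPM in WT and 32.8 and 19.2 CPM in Tg muscle Tregs, against 16.1 and 20.2 CPM in WT, 28.03 and 24.6 CPM in injured Tg and 24.3 and 27.5 CPM in uninjured Tg spleen Tregs. The 2 WT muscle libraries were the highest, and the Tg muscle libraries lay on either side of the Tg spleen libraries. Its log2 fold change was 1.52 (SE 0.30) in WT, adjusted p 0.00299, and 0.16 (SE 0.30) in Tg, adjusted p 0.826.

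Gpi1, the isomerase that follows hexokinase, was at 543 and 525 CPM in WT and 494 and 491 CPM in Tg muscle Tregs, and at 452 and 400.2 CPM in WT, 447 and 424 CPM in injured Tg and 480.3 and 436 CPM in uninjured Tg spleen Tregs. The groups did not overlap between tissues, yet the step was small: 1.42-fold in WT, adjusted p 0.0128, and 1.3-fold in Tg, adjusted p 0.0884. Without the second WT spleen library the WT adjusted p was 0.118.

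Phosphofructokinase, the enzyme of the committed step, has 3 genes. Pfkl, the liver type, was at 158 and 142 CPM in WT and 163 and 153 CPM in Tg muscle Tregs, and at 122 and 112 CPM in WT, 134 and 119.9 CPM in injured Tg and 119.99 and 121 CPM in uninjured Tg spleen Tregs. The muscle libraries were all above the spleen libraries by a small margin, with log2 fold changes of 0.54 (SE 0.15) in WT and 0.52 (SE 0.15) in Tg and adjusted p-values of 0.0247 and 0.0483. Leaving out any 1 of the 4 libraries compared raised these to between 0.0534 and 0.325. Pfkp, the platelet type, was at 169 to 264 CPM in Tregs, and Pfkm, the muscle type, at 6.9 to 21.4 CPM; neither passed. Pfkp shares sequence with the annotated gene Pitrm1, so its counts are less certain.

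Of the PFK2 enzymes, which make and remove the activator of phosphofructokinase, neither passed. Pfkfb3, the form induced in activated and hypoxic cells, was at 65.1 and 56.5 CPM in WT and 63.8 and 37.2 CPM in Tg muscle Tregs, against 44.3 to 51.5 CPM in the 6 spleen libraries. Pfkfb4 was at 9.06 and 24.2 CPM in WT spleen and 3.1 to 8.43 CPM in every other Treg library.

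Lower glycolysis, the steps that yield ATP, held Gapdh, Pgk1 and Pkm higher and Eno3 lower in WT muscle Tregs, of 8 genes tested, and Gapdh, Eno1 and Pkm higher in Tg. Pkm, pyruvate kinase, was at 1528 and 1575 CPM in WT and 1744 and 1702 CPM in Tg muscle Tregs. In spleen Tregs it was at 837 and 672 CPM in WT, 849 and 792 CPM in injured Tg and 909 and 845 CPM in uninjured Tg mice. The tissues were far apart relative to the spread within groups, 2.34-fold in WT and 2.41-fold in Tg, with adjusted p-values of 2.07e-05 and 2.01e-05. Counts per gene do not separate the M1 and M2 splice forms of Pkm.

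Gapdh, which oxidises glyceraldehyde-3-phosphate and is often used as a reference gene, was at 527 and 529 CPM in WT and 554 and 535 CPM in Tg muscle Tregs. Its spleen levels were 319 and 253 CPM in WT, 377 and 306 CPM in injured Tg and 354 and 353 CPM in uninjured Tg mice. The ranges did not overlap, with log2 fold changes of 1.07 (SE 0.15) and 0.87 (SE 0.15) and adjusted p-values of 0.000159 and 0.00135, so this reference gene was not level between the tissues. Pgk1, the first ATP-yielding enzyme, was at 87.6 and 85.6 CPM in WT and 84.1 and 75.3 CPM in Tg muscle Tregs, and at 68.96 and 50.2 CPM in WT, 67.6 and 56.5 CPM in injured Tg and 55.1 and 65.8 CPM in uninjured Tg spleen Tregs. All muscle values were above all spleen values, and the log2 fold changes were 0.74 (SE 0.20) in WT, adjusted p 0.0244, and 0.56 (SE 0.20) in Tg, adjusted p 0.121. Without the second WT muscle library the WT adjusted p was 0.0786, and without the second WT spleen library 0.246.

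**Figure D2:**
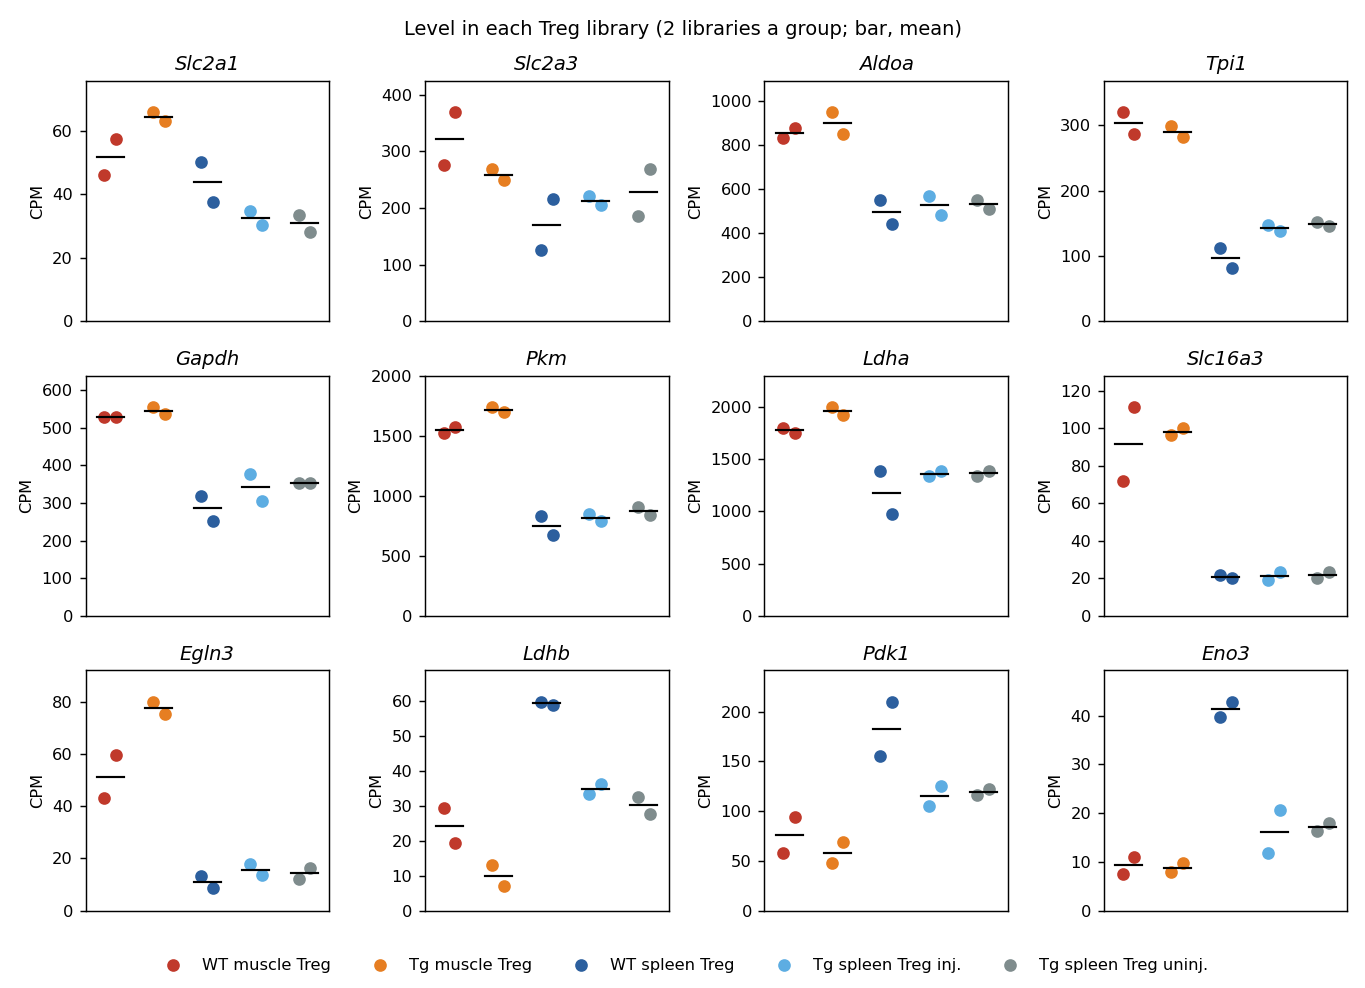
CPM (y axis, each from 0) of 12 members in the 10 Treg libraries, 1 point a library and a bar at the mean of 2. For Aldoa, Tpi1, Gapdh, Pkm, Ldha, Slc16a3 and Egln3 the 4 muscle points lie above all 6 spleen points. How many of all genes separate in this way was not counted. Eno3 is highest in WT spleen at 39.8 and 42.9 CPM.

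Phosphoglycerate mutase and enolase follow, each with a widespread and a muscle-type gene. The coding sequences of Pgam1 and Pgam2 are 74.5% identical and those of Eno1 and Eno3 76.7%. Eno1 and Eno3 share no run of 25 bases, the read length used, while the longest run that Pgam1 and Pgam2 share is 28 bases. The first 90 coding bases of Pgam1 (chr19:41912048-41912137, plus strand) and Pgam2 (chr11:5803599-5803688, minus strand), in mm10 and 5′ to 3′, are shown because they let a short read be assigned to 1 isozyme. Capitals mark the 28 bases at which the genes differ.
Pgam1: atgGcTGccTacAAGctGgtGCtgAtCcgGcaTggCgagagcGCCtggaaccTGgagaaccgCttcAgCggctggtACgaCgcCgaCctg
Pgam2: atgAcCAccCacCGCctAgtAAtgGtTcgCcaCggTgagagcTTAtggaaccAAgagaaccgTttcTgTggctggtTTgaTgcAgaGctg

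Pgam1 was at 29.4 and 23.4 CPM in WT and 33.8 and 22.8 CPM in Tg muscle Tregs, against 18.1 and 15.8 CPM in WT, 20.1 and 20.3 CPM in injured Tg and 17.3 and 21.03 CPM in uninjured Tg spleen Tregs. The muscle libraries lay above the spleen libraries, but the log2 fold changes of 0.82 (SE 0.31) in WT, adjusted p 0.0868, and 0.67 (SE 0.31) in Tg, adjusted p 0.226, did not pass. Pgam2 was at 2.59 and 2.41 CPM in WT and 0 and 3.6 CPM in Tg muscle Tregs, and at 1.51 and 1.33 CPM in WT, 3.59 and 1.42 CPM in injured Tg and 2.77 and 1.89 CPM in uninjured Tg spleen Tregs. These rest on 0 to 22 counts a library, so a difference in Pgam2 between Treg groups was not detectable at this depth.

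Eno1, the widespread enolase, was at 349 and 341 CPM in WT and 384 and 382 CPM in Tg muscle Tregs, and at 341 and 327 CPM in WT, 281 and 301 CPM in injured Tg and 309 and 299 CPM in uninjured Tg spleen Tregs. The Tg groups were well apart, while one WT muscle library lay within the WT spleen range. Its log2 fold change was 0.60 (SE 0.12) in Tg, adjusted p 0.00688, and 0.23 (SE 0.12) in WT, adjusted p 0.237; without the first injured Tg spleen library the Tg adjusted p was 0.097. Eno2, the neuronal enolase, was at 4.51 to 17.6 CPM and did not pass.

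Eno3, the muscle-type enolase, ran the other way. It was at 7.57 and 11.1 CPM in WT and 7.93 and 9.69 CPM in Tg muscle Tregs, against 39.8 and 42.9 CPM in WT, 11.7 and 20.6 CPM in injured Tg and 16.3 and 18.1 CPM in uninjured Tg spleen Tregs. WT spleen stood alone above the other 8 Treg libraries, and all 4 muscle libraries were below all 6 spleen libraries. In WT Tregs it fell by 1.94 on the log2 scale from spleen to muscle (SE 0.37), adjusted p 0.00244, and in Tg the log2 fold change was -0.67 (SE 0.39), adjusted p 0.362. The 16 muscle fibre markers summed to 14.3 to 17.1 CPM in WT muscle Tregs, at most 20.1 in Tg muscle Tregs, 23.1 to 24.7 in WT spleen, 16.8 to 19.2 in injured Tg spleen and 17.8 to 20.1 in uninjured Tg spleen Tregs. In whole muscle the same sum was 238037 to 264091 CPM. Myoglobin (Mb) had 0 counts in all 10 Treg libraries, and the fibre actin Acta1 had 0 in all 6 spleen libraries and at most 2 counts in a muscle one.

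Lactate handling held Ldha and Slc16a3 higher and Ldhb lower in muscle Tregs of both genotypes, while Slc16a1 did not pass. Slc16a3 (MCT4) is the low-affinity carrier that exports lactate from strongly glycolytic cells. It was at 71.8 and 111 CPM in WT and 96.2 and 100.03 CPM in Tg muscle Tregs, and at 21.6 and 20.4 CPM in WT, 18.9 and 23.2 CPM in injured Tg and 20.5 and 23.5 CPM in uninjured Tg spleen Tregs. Every muscle library was far above every spleen library, and the 3 spleen groups overlapped. The log2 fold change was 2.33 (SE 0.26) in WT and 2.42 (SE 0.26) in Tg, with adjusted p-values of 2.98e-05 and 2.51e-05. Slc16a1 (MCT1), the carrier of most other cells, was at 13.4 and 26.2 CPM in WT and 12.4 and 19.8 CPM in Tg muscle Tregs and 14.4 to 26.2 CPM in the spleen libraries, with no separation of the tissues. Per kilobase of transcript, Slc16a3 made up 82.9% ± 2.32 (SD, n = 2) of the 2 carriers in WT muscle and 86.3% ± 3.56 in Tg muscle Tregs, against 47.5% ± 1.095 in WT and 55.7% ± 2.32 in injured Tg spleen Tregs.

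Ldha, the subunit that favours lactate formation, was at 1797 and 1754 CPM in WT and 1998 and 1921 CPM in Tg muscle Tregs. In spleen Tregs it was at 1389 and 972 CPM in WT, 1335 and 1384 CPM in injured Tg and 1336 and 1389 CPM in uninjured Tg mice. Muscle and spleen did not overlap, with 1.71-fold in WT, adjusted p 0.00219, and 1.65-fold in Tg, adjusted p 0.00556; without the first injured Tg spleen library the Tg value was 0.0614. Ldhb was at 29.4 and 19.4 CPM in WT and 13.1 and 6.98 CPM in Tg muscle Tregs, against 59.9 and 59.1 CPM in WT, 33.5 and 36.4 CPM in injured Tg and 32.6 and 27.8 CPM in uninjured Tg spleen Tregs. Tg muscle was the lowest group and WT spleen the highest. It fell by 1.12 (SE 0.30) in WT and by 1.64 (SE 0.33) in Tg on the log2 scale, with adjusted p-values of 0.0193 and 0.00533. The WT adjusted p was 0.141, 0.0714 and 0.101 without the second muscle, first spleen and second spleen library, and the Tg one was 0.078 without the second muscle library.

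Pyruvate dehydrogenase kinases keep pyruvate out of the mitochondria by switching off pyruvate dehydrogenase. Pdk1 was at 58.2 and 94.6 CPM in WT and 47.9 and 68.9 CPM in Tg muscle Tregs, and at 155 and 210.1 CPM in WT, 106 and 125 CPM in injured Tg and 117 and 123 CPM in uninjured Tg spleen Tregs. Every muscle library was below every spleen library. In WT it fell by 1.06 on the log2 scale (SE 0.25), adjusted p 0.0124, which was 0.146 without the second WT spleen library, and in Tg the log2 fold change was -0.78 (SE 0.26), adjusted p 0.093. Pdk2 was at 12.3 and 18.5 CPM in WT and 4.14 and 8.34 CPM in Tg muscle Tregs and 14.0 to 27.5 CPM in the spleen libraries, and did not pass in WT (adjusted p 0.322) or Tg (adjusted p 0.0902). Pdk4, the kinase that fasting induces in muscle, had 0 counts in 9 of 10 Treg libraries and 0.11 CPM in the other one.

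In cells with oxygen, prolyl hydroxylases such as Egln1 (PHD2) and Egln3 (PHD3) mark the HIF-1 subunit Hif1a for destruction, and Egln3 is itself a HIF target. Egln3 was at 43.02 and 59.6 CPM in WT and 80 and 75.3 CPM in Tg muscle Tregs, and at 13.1 and 8.66 CPM in WT, 17.97 and 13.5 CPM in injured Tg and 12.1 and 16.4 CPM in uninjured Tg spleen Tregs. The tissues were widely apart: 5.59-fold in WT, adjusted p 8.95e-05, and 5.65-fold in Tg, adjusted p 7.23e-05. Hif1a was at 785 and 1347 CPM in WT and 454 and 1232 CPM in Tg muscle Tregs, and at 342 and 312 CPM in WT, 356 and 443 CPM in injured Tg and 339.5 and 502 CPM in uninjured Tg spleen Tregs. The 2 libraries of each muscle group lay far apart, and the first Tg muscle library was below one of the uninjured spleen libraries. Neither log2 fold change passed: 1.90 (SE 0.54) in WT, adjusted p 0.07, and 1.28 (SE 0.53) in Tg, adjusted p 0.256. In WT it passed with DESeq2 (adjusted p 0.00474) and limma-voom (0.00412), and in Tg without the first muscle library (0.0221). Egln1 was at 16.2 to 26.8 CPM in muscle and 3.47 to 20.9 CPM in spleen Tregs and did not pass.

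HIF-1 binds the core letters ACGTG, and GCGTG in some sites. Of the 8 members higher in muscle Tregs of both genotypes, 4 were chosen. For Ldha, which has several RefSeq starts, the start with the most matches to these motifs was taken. The bases just before a RefSeq start site of each of the 4 are shown with the motifs, on either strand, in capitals. They are given 5′ to 3′ on the gene's strand, in build GRCm38.p6, at chr11:120948817-120949052 (plus) for Slc16a3, chr12:54203875-54204124 (minus) for Egln3, chr7:46845554-46845803 (plus) for Ldha and chr6:125165774-125166023 (minus) for Gapdh. The last 14 bases before the Slc16a3 start, annotated as exon in another transcript, are left out and hold a second match.
Slc16a3: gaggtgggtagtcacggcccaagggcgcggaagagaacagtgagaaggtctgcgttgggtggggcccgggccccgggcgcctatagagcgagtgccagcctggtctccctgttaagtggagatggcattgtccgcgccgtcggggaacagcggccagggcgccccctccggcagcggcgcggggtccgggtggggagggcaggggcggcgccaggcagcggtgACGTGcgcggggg
Egln3: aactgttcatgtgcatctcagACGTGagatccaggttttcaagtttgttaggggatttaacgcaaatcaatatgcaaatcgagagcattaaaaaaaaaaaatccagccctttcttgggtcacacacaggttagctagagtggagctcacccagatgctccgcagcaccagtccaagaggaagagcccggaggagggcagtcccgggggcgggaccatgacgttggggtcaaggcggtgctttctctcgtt
Ldha: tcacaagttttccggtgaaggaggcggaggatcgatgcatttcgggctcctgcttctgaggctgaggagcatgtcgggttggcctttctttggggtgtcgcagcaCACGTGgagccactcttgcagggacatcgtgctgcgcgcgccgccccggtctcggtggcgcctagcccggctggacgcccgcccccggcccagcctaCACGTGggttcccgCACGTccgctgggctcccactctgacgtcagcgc
Gapdh: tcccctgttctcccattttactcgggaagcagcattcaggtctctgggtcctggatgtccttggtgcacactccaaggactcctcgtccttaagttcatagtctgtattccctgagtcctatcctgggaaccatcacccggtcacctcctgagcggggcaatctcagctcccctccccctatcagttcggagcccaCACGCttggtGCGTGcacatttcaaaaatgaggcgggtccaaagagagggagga

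Overlapping matches counted once, the shown stretches hold 1 match for Slc16a3, 1 for Egln3, 3 for Ldha and 2 for Gapdh. The 250 bases before the other Ldha start, which is not shown, hold 1 match. Of the 31 members with a RefSeq promoter entry, 87.1% had a match in the 250 bases before at least 1 start, against 41.5% of 27025 genes. Counted per promoter, 77.8% of the members' 45 had a match, against 38.6% of all 32851. The genes compared were all those with an entry, whether or not Tregs express them. Both motifs contain the letters CG, and the promoters were not matched for base composition. A match describes letters and shows no binding, and members that did not differ between tissues are among the matched genes. Of the members higher in both genotypes but not shown, Pfkl, Aldoa and Pkm had a match and Tpi1 had 0. Ldhb, Eno3 and Pdk1, called as lower in muscle in at least 1 genotype, each had a match.

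Some counts are less certain because the genes have near copies. Of the 25-base words in a member's coding transcripts, 68.4% of those of Pgk1, 63.9% of Gapdh, 54.8% of Eno1, 42.3% of Pgam1, 42.1% of Gpi1, 38.9% of Pkm, 38.0% of Ldhb, 26.2% of Ldha, 23.6% of Tpi1 and 21.9% of Aldoa also occur in another annotated gene. How the authors' counting treated reads with several matches is not given in the sources used here. Slc16a3, Egln3, Egln1 and Pdk2 share no word, Eno3 shares 0.29% and Pgam2 0.49%. The library kit does not mark strand, so reads of Hif1a, Pfkm, Hk1 and Slc2a1 cannot be told apart from those of the antisense genes that overlap them.

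**Figure D3:**
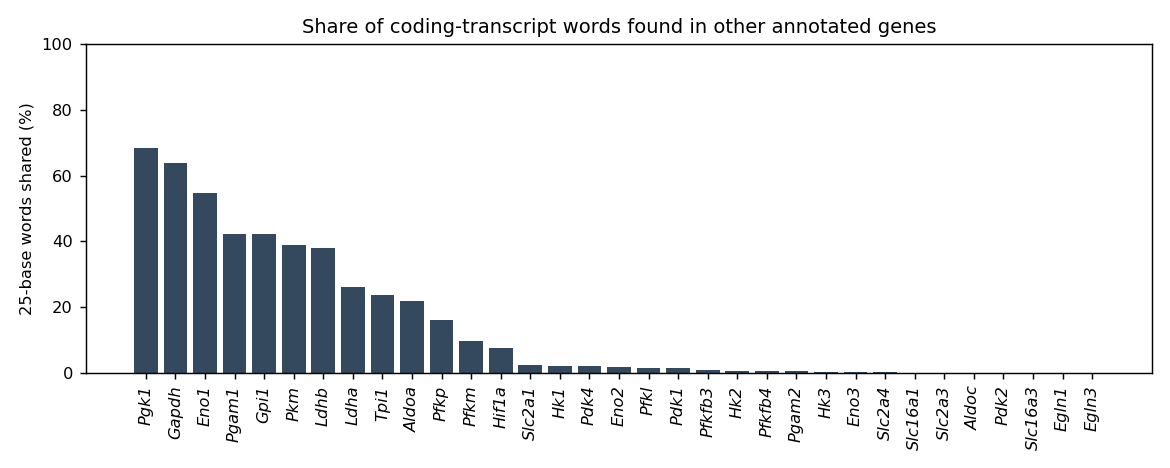
Percent of the distinct 25-base words of each member's protein-coding transcripts (bars) that also occur in another annotated gene. Pgk1, at 68.4%, and Gapdh, at 63.9%, share the most, and Slc16a3 and Egln3 share none.

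The genotype and injury comparisons called no member. Between Tg and WT muscle Tregs 0 of 30 members passed, with 4 at an unadjusted p under 0.05 (Aldoc, Ldhb, Pdk2 and Egln3). Of all 13188 genes tested by edgeR, 0.318% passed and 1152 were at an unadjusted p under 0.05. Ldhb was 0.409 times its WT level there, a log2 fold change of -1.29 (SE 0.33), adjusted p 0.15, and the 2 groups did not overlap. Between injured Tg and WT spleen Tregs 0 of 30 passed, with 5 at an unadjusted p under 0.05 (Tpi1, Pfkfb4, Eno3, Ldhb and Pdk1). Of all 13188 genes, 1.3% passed there and 1422 were at an unadjusted p under 0.05. Eno3 had a log2 fold change of -1.36 (SE 0.37), adjusted p 0.097, Ldhb of -0.77 (SE 0.30), adjusted p 0.315, and Pdk1 of -0.67 (SE 0.25), adjusted p 0.303. All 3 were lower in both injured Tg libraries than in both WT libraries. How many of all genes separate in this way was not counted. DESeq2 called 0 members in both comparisons; limma-voom called 0 between muscle Tregs and 1, Eno3, between spleen Tregs (adjusted p 0.0473). These comparisons share libraries with the tissue comparisons, so the low Tg spleen and high WT spleen values of Eno3 enter both.

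In Tg spleen Tregs no member was called between injured and uninjured mice. Of the 30 tested 0 passed, 0 reached an unadjusted p under 0.05, and the members' median log2 fold change was -0.02. Of all genes 0% passed, and 236 were at an unadjusted p under 0.05. DESeq2 and limma-voom also called 0 members. The widest log2 fold change among members was that of Eno2, 1.02 (SE 0.48), adjusted p 1, while Slc16a3 was at -0.09 (SE 0.27) and Ldha at -0.03 (SE 0.15).

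Per kilobase of transcript, which allows genes to be compared, Ldha was the most abundant member in all 5 Treg groups. In WT muscle Tregs the mean was 978 CPM per kb for Ldha, 638 for Pkm, 552 for Aldoa and 372 for Gapdh. In WT spleen Tregs the same 4 led, at 650.4, 310.2, 319 and 201 CPM per kb. The 33 members together took 8111 to 8769 CPM in muscle and 4707 to 5730 CPM in spleen Tregs, ranges that did not overlap. In whole muscle they took 56976 to 63095 CPM, and Aldoa led at 15287 CPM per kb in WT and 14589 in Tg.

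Tregs and whole muscle differed in their main isozyme of enolase, phosphoglycerate mutase, phosphofructokinase and hexokinase. Per kilobase, Eno3 was 3.29% ± 0.866 (SD, n = 2) of enolase in WT and 2.83% ± 0.399 in Tg muscle Tregs, 13.6% ± 0.984 in WT, 6.47% ± 2.13 in injured Tg and 6.74% ± 0.566 in uninjured Tg spleen Tregs. In whole muscle it was 98.9% ± 0.226 in WT and 98.7% ± 0.113 in Tg (SD, n = 3). As a share of counts the Treg values were 2.53%, 2.18%, 10.8%, 5.02% and 5.26% in the same order, so WT spleen was the highest either way. The per-length share depends on the length used: with the union of annotated exons, a choice made after seeing the data, it was 7.39%, 6.41%, 27.2%, 13.9% and 14.6%. Pgam2 was 99.952% ± 0.008 of phosphoglycerate mutase in WT whole muscle and 12.5% to 20.6% in the Treg groups, where it rests on few counts.

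Pfkm made up 99.4% ± 0.054 of phosphofructokinase in WT whole muscle and 3.16% to 6.82% in the Treg groups (6.33% to 13.3% with union exon length), which divided the step between Pfkp and Pfkl. In WT muscle Tregs Pfkp held 54.3% ± 2.58 and Pfkl 40.9% ± 5.06 (SD, n = 2), and in WT spleen Tregs 56.5% ± 5.96 and 36.7% ± 2.85. Hk2 was 91.7% ± 1.55 of hexokinase in WT and 86.6% ± 1.63 in Tg whole muscle, while Hk1 held 92.3% to 98.2% in the Treg groups. With union exon length Hk2 was 3.2% to 12.97% in the Treg groups, against 1.77% to 7.51% by the longest coding transcript. Ldhb was the minor subunit everywhere, at 1.87% ± 0.502 in WT and 0.704% ± 0.284 in Tg muscle Tregs, 6.73% ± 1.51 in WT and 3.45% ± 0.109 in injured Tg spleen Tregs, and 6.47% ± 0.524 in WT whole muscle. With union exon length these were 2.81%, 1.06%, 9.85%, 5.14% and 9.48%. Of the 3 pyruvate dehydrogenase kinases among the members, Pdk1 made up 68.0% to 80.8% in the Treg groups and Pdk2 81.96% ± 8.095 in WT whole muscle. These shares leave out Pdk3, a kinase of the same family that is no member, which was at 43.9 to 72.3 CPM in the Treg libraries and 1.3 to 12.7 CPM in whole muscle. Shares were not tested.

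**Figure D4:**
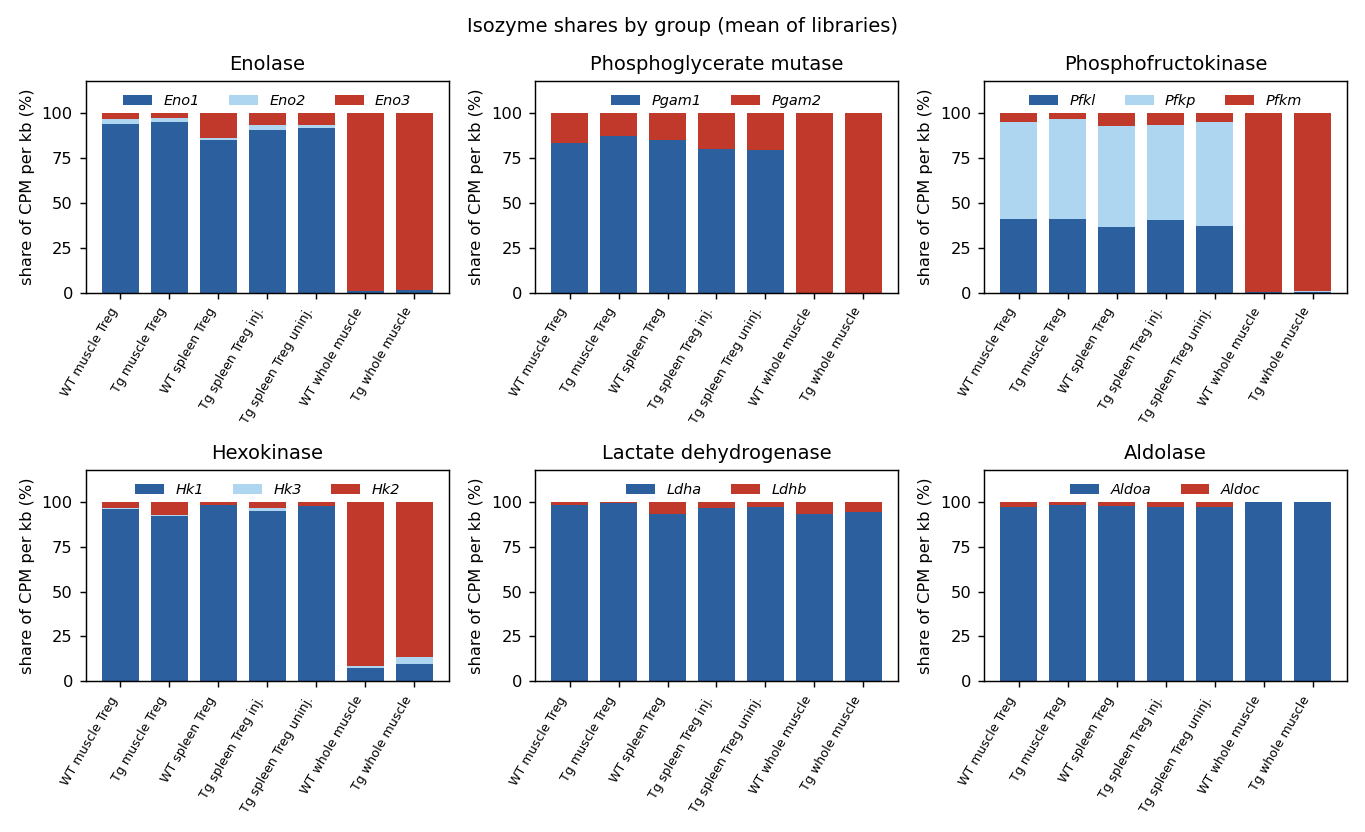
Mean share (y axis, percent of CPM per kb) of each isozyme in 6 enzymes for the 7 groups, 2 libraries a Treg group and 3 a whole muscle group. Eno3, Pgam2, Pfkm and Hk2 (red) fill most of the bar in whole muscle and a small part in Tregs, and Ldhb and Aldoc stay small throughout.

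Between Tg and WT whole muscle, 8 days after injury, no member passed. Of 32 members tested by edgeR 0 passed, with 2 at an unadjusted p under 0.05 (Hk3 and Slc16a1). Of all 12377 genes, 0.0323% passed and 598 were at an unadjusted p under 0.05. DESeq2 and limma-voom also called 0 members. Eno2 was not tested, at 1.01 to 2.79 CPM. Eno3 was at 8837, 8176 and 8298 CPM in WT and 8249, 8687 and 8671 CPM in Tg muscle, and Pgam2 at 3944, 3443 and 3646 CPM in WT and 3570, 3833 and 3761 CPM in Tg. The genotypes overlapped for both of these, with log2 fold changes of -0.02 (SE 0.09) and -0.02 (SE 0.10). Eno1 was at 93.8, 122 and 135 CPM in WT and 149, 136 and 135 CPM in Tg muscle, 0.24 (SE 0.13) on the log2 scale, adjusted p 0.994. Its Tg libraries all lay above the WT ones, by a narrow margin. Pgam1 was at 3.47 to 4.92 CPM.

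Hk3 was at 1.01, 3.1 and 0.39 CPM in WT and 3.62, 7.85 and 3.39 CPM in Tg muscle, a log2 fold change of 1.67 (SE 0.67), adjusted p 0.994. All Tg values exceeded all WT values, as for Eno1, and how many of all genes do so was not counted. The 12 macrophage markers summed to 559 to 1519 CPM in WT and 1482 to 1946 CPM in Tg muscle, and 12 of 12 had a positive log2 fold change with 0 passing; their part in the Hk3 values was not tested. Slc16a1 was at 39.5, 35.4 and 40.2 CPM in WT and 39.1, 27.4 and 18.2 CPM in Tg, -0.49 (SE 0.23), adjusted p 0.994. Pdk4 varied widely within groups, from 99.7 to 279 CPM in WT and 76.5 to 195 CPM in Tg. The remaining members had log2 fold changes between -0.80 (Slc2a1) and 0.26 (Hk1), with no direction that passed.

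**Figure D5:**
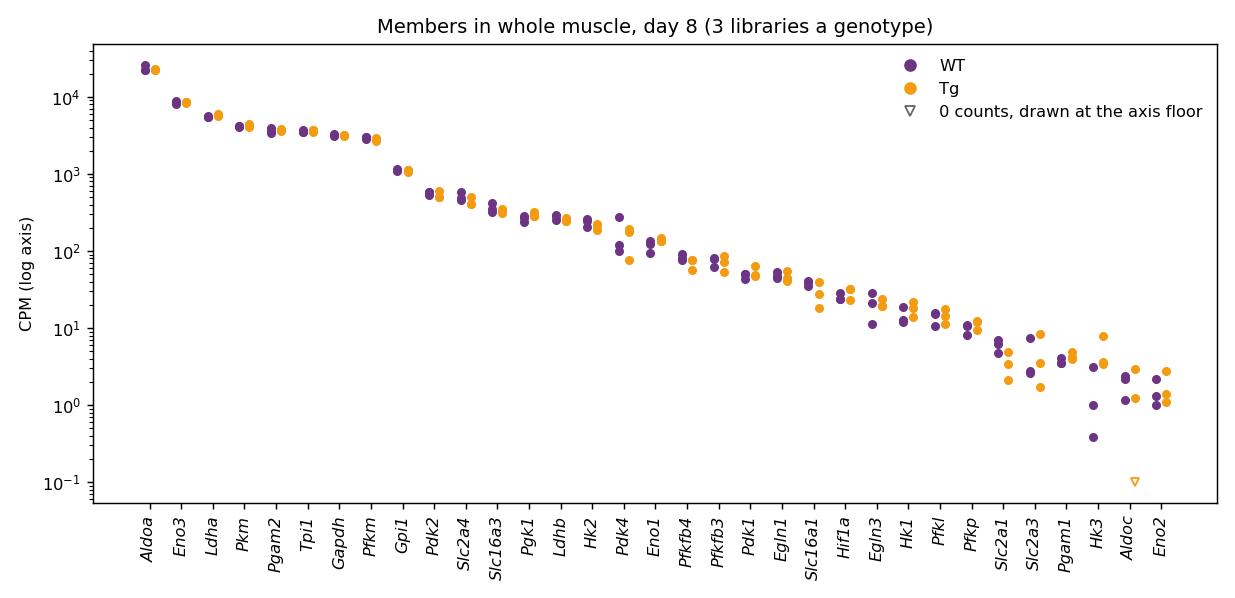
CPM (log axis) of the 33 members in WT (purple) and Tg (orange) whole muscle, 1 point a library, ordered by mean level. The genotypes overlap for all tested members but Hk3 and Eno1, whose 3 Tg points lie above the WT points. For Eno1 the margin is narrow, and how many of all genes separate in this way was not counted. Aldoc had 0 counts in 1 Tg library, drawn as an open triangle.

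Of 48 other genes of glucose use, 37 were tested in Tregs. In WT, 6 of 37 were higher and 1 lower in muscle than in spleen, beside 9.38% and 6.87% of all genes. In Tg, 1 of 37 was higher and 1 lower, beside 4.83% and 2.55%. The median log2 fold changes were 0.08 in WT and -0.04 in Tg. In the pentose phosphate pathway Taldo1 (log2 fold change 0.79, adjusted p 0.00466) and Tkt (0.43, adjusted p 0.0424), its 2 sugar-shuffling enzymes, passed in WT and 0 of 7 in Tg. Among glycogen genes the one listed as Pgm1 passed in WT (1.01, adjusted p 0.00638) and in Tg (0.94, adjusted p 0.0158), and Pgm2, Gyg and Pygb in WT. Gene tables exchange the symbols Pgm1 and Pgm2, and the gene listed as Pgm2 was the abundant one in whole muscle, at 1529 to 1688 CPM against 3.96 to 10.2 CPM for Pgm1. None of 10 genes of pyruvate entry to mitochondria passed in either genotype, with 0 at an unadjusted p under 0.05 in both. Txnip, which restrains glucose uptake, was lower in Tg muscle Tregs (-0.67, adjusted p 0.0307), and Gapdhs, the sperm form of Gapdh, was lower in WT at no more than 0.22 CPM in muscle and 2.52 and 5.11 CPM in spleen.

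Of 21 other genes of the oxygen response 17 were tested. In WT 1 was higher in muscle, beside 9.38% of all genes, in Tg 2 were higher, beside 4.83%, and none was lower in either. Ndrg1, a stress gene that hypoxia induces, was at 72.4 and 75.3 CPM in WT and 115 and 112 CPM in Tg muscle Tregs. In spleen Tregs it was at 31.2 and 42.6 CPM in WT and 62.0 and 65.7 CPM in injured Tg mice. The uninjured Tg spleen libraries were at 67.6 and 92.5 CPM, the second above both WT muscle libraries. By edgeR, Ndrg1 was higher in muscle by 1.16 in WT (adjusted p 0.00152) on the log2 scale. Against injured Tg spleen it was higher by 1.03 in Tg (adjusted p 0.00482). Mxi1, a MYC antagonist, passed in Tg alone (1.86, adjusted p 0.00897). None of the 6 genes of the HIF pathway itself passed.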

How the data were processed

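RNA of sorted Tregs and of whole muscle was read as paired 25-base reads from oligo(dT)-primed, transposon-cut libraries, per the labels' protocols. The authors deposited 1 table of raw counts per gene for 16 libraries; the submitters' processing notes name STAR 2.5.4, featureCounts and mm10, without settings. Groups came from the sample labels. From the deposited counts, CPM were computed on library totals, and CPM per kb on the longest protein-coding transcript of GENCODE M21. All 10 Treg libraries entered 1 fit (5 residual degrees of freedom) and the 6 whole muscle libraries another (4), with edgeR 4.0.16 in R 4.3.3: filterByExpr, TMM scaling, robust quasi-likelihood tests and Benjamini-Hochberg adjustment over all genes tested, called at an adjusted p under 0.05. The SE is the log2 fold change divided by the root of the F statistic. The script was tested on simulated data. Alternatives used DESeq2 1.42.0, limma 3.58.1 (voom), other scalings and filters, and each library left out.

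The 33 members and all other lists were chosen with earlier results of these data known. All members are named. Values in every library are given for members called in a tissue comparison and for Eno1, Eno3, Pgam1 and Pgam2, and up to 2 called genes per direction are named from each role of the other lists, with Gyg and Pygb added after their values were seen. Promoters came from RefSeq (GRCm38.p6), with entries for 31 members; ACGTG and GCGTG were searched on both strands in the 250 bases before each start. Protein sequences were not used here. Depth ran from 1986700 to 9116800 counts a library. Libraries of 1 group were never as alike as repeat draws of 1 library would be, with a chi-square over its degrees of freedom from 5.47 to 28.9 by group.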

Additional observations from a re-analysis of the deposited data

How the results depend on the processing

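The tissue comparisons held in number: 10 to 16 members were called in WT over the alternatives (15 as reported) and 8 to 13 in Tg (11 as reported), with leave-one-out ranges of 10 to 14 and 8 to 11. No called member changed sign. Over all comparisons, calls held in 305 gene-by-setting results and were lost in 33, and 23 that had missed the threshold passed. Aldoa, Egln3, Gapdh, Pkm, Slc16a3 and Tpi1 kept their calls in both genotypes under all 13 alternatives. Between Tg and WT muscle Tregs, 1 member (Ldhb, lower) passed with no low-count filter, against 0 as reported. Between injured Tg and WT spleen Tregs, against 0 as reported, 2 passed with no low-count filter and 2 with only the groups compared (Eno3 and Pdk1, lower), 1 with limma-voom (Eno3), and 0 to 1 with a library left out (Tpi1, higher, without the first WT spleen library). The cause was not tested. The reported fits did not pair samples by replicate number. Correlations of same-numbered deviations ran from -0.026 to 0.094, which cannot show that pairing is absent. In groups of 2 libraries the deviations mirror each other, leaving 1 value a Treg comparison. Adding a replicate block, 16 members were called in WT and 13 in Tg, and 0 in each of the other 5 comparisons. With the union of annotated exons as the length, an alternative chosen after seeing the data, Eno3 was 27.2% of enolase in WT spleen Tregs and 7.39% in WT muscle Tregs. Leaving out 1 library leaves its group with a single one, which is then assumed to vary like the other groups. With 2 libraries a Treg group and few counts of Pgam2, Hk2, Hk3, Slc2a4 and Pdk4, small differences in these genes were not detectable.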
